A study of Homo sapiens with 6 samples.

Results

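The 56 genes described here encode the proteins that mark, license and fire replication origins and the proteins that copy DNA at the fork. They were chosen by symbol from what their proteins are known to do, with earlier results of these data known, and all 56 were found among the 12982 genes of the deposited expression table. SW480, a human line of colorectal adenocarcinoma cells, was treated for 24 h with either the solvent DMSO or MPM-1, and total RNA was sequenced. MPM-1 is a fluorescent small molecule that collects in mitochondria, and the labels call it WT4. Each treatment had 3 libraries, all of genotype WT, and all came from this 1 line grown in DMEM medium with fetal bovine serum. The concentration of MPM-1 used for sequencing is not given in the sources used here, and nothing says whether the 3 libraries of a treatment came from separate cultures, so the p-values below measure the spread between these libraries, which may be technical.

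An origin is first bound by the origin recognition complex, and CDC6 and CDT1 then load the ring-shaped MCM helicase onto DNA while it is still inactive, a step called licensing. In S phase the kinase CDC7 with its partner DBF4, together with cyclin-dependent kinases, recruits CDC45 and the GINS complex to the ring, and the active helicase opens the fork. Polymerase alpha with primase lays down primers, polymerases epsilon and delta extend them on the sliding clamp PCNA, RPA covers single strands, and FEN1 and LIG1 join the lagging strand fragments. Many of these genes are transcribed at the G1/S transition under the control of E2F factors, and their RNA is a common marker of proliferating cells.

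The libraries held 32095456 to 40269820 counts under DMSO and 31733667 to 35403841 under MPM-1, and the lowest count of any replication gene in any library was 56 (CLSPN). Colonic epithelial markers were present, with 11 of 12 in the table and EPCAM at a mean of 676 CPM (counts brought to a common library size by TMM scaling) in both treatments. Of these 11 markers 5 were lower after MPM-1, with log2 fold changes down to -2.20 (CDX2), and 5 were higher, up to 1.47 (TFF3). Of markers of other cells, 2 of 7 fibroblast genes, 1 of 6 leukocyte genes and 0 of 4 endothelial genes were in the table. The highest of them, CD14, had a mean of 9.38 CPM under DMSO and 3.70 CPM after MPM-1. The 13 genes of mitochondrial DNA that are in the table took 8.28 to 9.11% of counts under DMSO and 1.95 to 2.35% after MPM-1. TMM scaling without them left 45 replication genes lower and 2 higher, as in the fit with them. TMM itself sets aside genes with extreme levels or ratios, so this comparison could hardly show their part in the results.

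Replication genes as a group were lower after MPM-1. They took 0.218 to 0.253% of all counts in the DMSO libraries and 0.133 to 0.144% in the MPM-1 libraries. At an adjusted p under 0.05 (edgeR quasi-likelihood test, Benjamini-Hochberg over all 12982 genes), 45 of the 56 were lower, 2 were higher and 9 did not pass, where 28.8% of all genes were lower and 27.7% higher. At an adjusted p under 0.01 and a size of 1 or more on the log2 scale, 19 were lower and 0 higher, against 8.75% and 5.58% of all genes, and the highest log2 fold change of any of the 56 was 0.35. Every MPM-1 library lay below every DMSO library in 46 genes and above in 3 (ORC3, ORC5 and RFC1), which was so in 33.3% and 31% of all genes, and the libraries overlapped in the other 7. The median log2 fold change was -0.84, beside -0.026 over all genes tested. In bulk RNA, a smaller share of cells in S phase and less of these RNAs in each cell cannot be told apart.

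**Figure D1:**
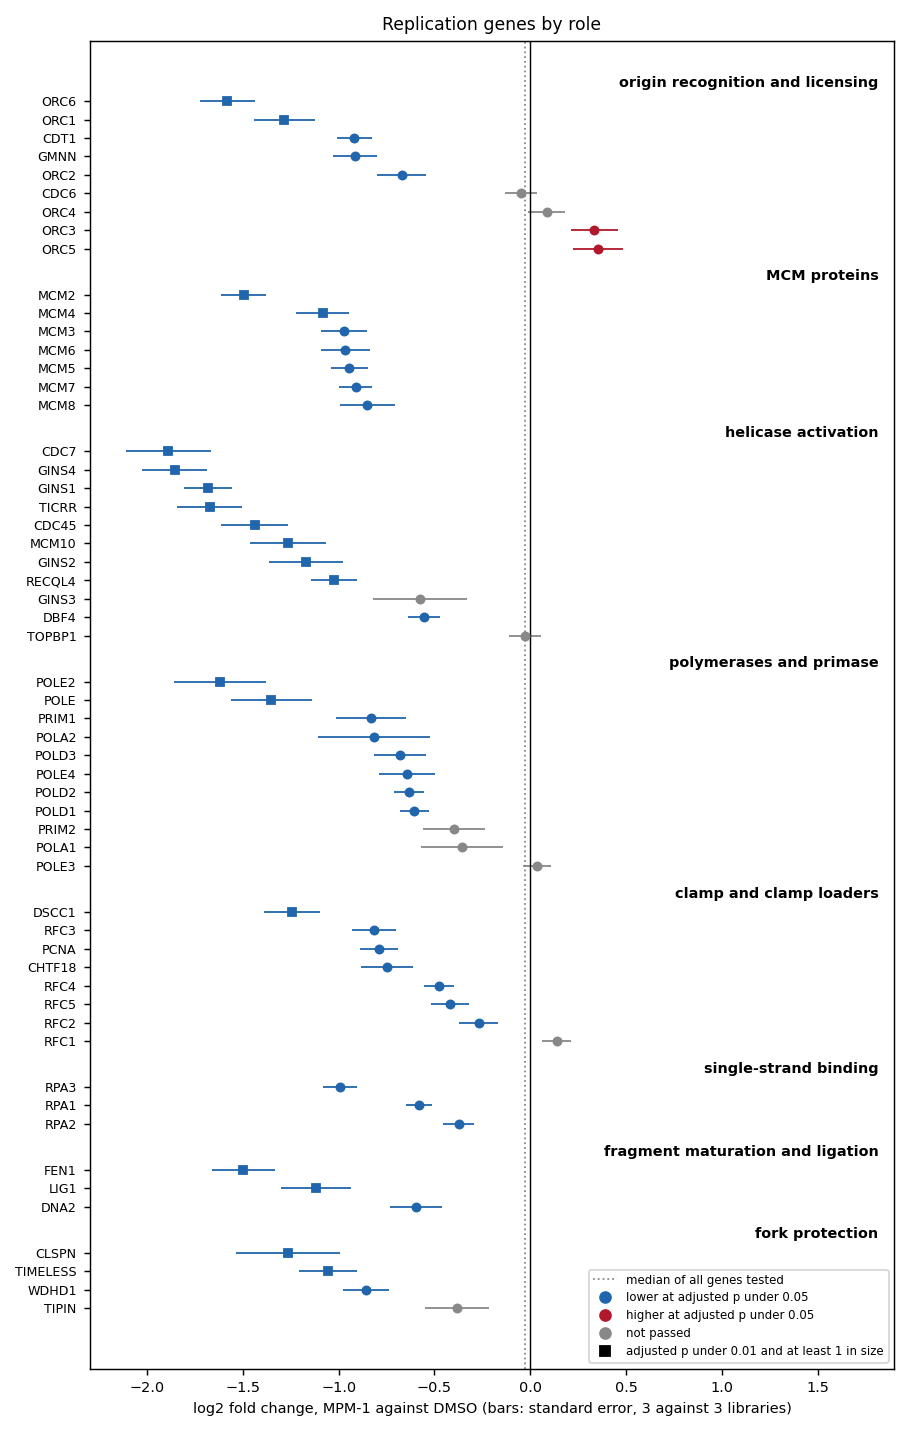
Log2 fold change (x axis, MPM-1 against DMSO, edgeR) of each of the 56 replication genes, grouped by role; bars are standard errors, squares passed an adjusted p under 0.01 with at least 1 in size, and the dotted line is the median of all genes tested at -0.026. The genes of helicase activation reach furthest to the left, down to -1.89, and ORC3 and ORC5 are the genes drawn as higher.

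The fall was not even across the roles. Helicase activation had the lowest median log2 fold change (-1.27), and 8 of its 11 genes were lower by at least 1 at an adjusted p under 0.01. Fragment maturation and ligation followed with a median of -1.12 over 3 genes, then the MCM proteins with -0.97 over 7 and fork protection with -0.96 over 4. The medians were -0.67 for the 9 genes of origin recognition and licensing, -0.64 for the 11 of the polymerases and primase, -0.61 for the 8 of the clamp and its loaders and -0.58 for the 3 of single-strand binding. These medians are a description, and the differences between roles were not tested.

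The promoters of the replication genes were read because many of them are known E2F targets. RefSeq windows on GRCh38.p14 matched 47 of the 56 genes, 11 of them with several starts, and DNA2, DSCC1, GINS4, MCM4, MCM5, POLD3, RECQL4, RPA2 and RPA3 had none. On both strands of the 250 bases before the start, 4 E2F spellings were searched: TTTCCCGC, TTTGGCGC, TTTCGCGC and TTTGCCGC. At least 1 of them was present in 16 of the 47 genes (34.0%), in 5.64% of the 9595 tested genes with a window and in 3.40% of all 27305 genes with a window. A gene with several windows counted as holding a match if any of them did. Matches lay in CDC7, POLE4, MCM6, GMNN, MCM3, ORC3, MCM7, POLA2, POLE, RFC3, TIPIN, GINS2, CDT1, LIG1, PCNA and POLA1. In TIPIN both lay in a window inside the gene (chromosome 15, 66356636 to 66356935), and the window at 66386668 to 66386967 held none. With the first 50 bases after the start added, 24 of the 47 held a match (51.1%), beside 6.65% of the tested genes. In GENCODE release 29, 10 of the 22 upstream matches fell in a noncoding exon or untranslated region, 7 lay outside genes and 5 in an intron.

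Of the genes lower by at least 1 on the log2 scale, 4 held an upstream match, and their sites are printed in 30 bases each, 5′ to 3′ on the gene's strand, with the match in capitals. CDC7 has a pair of matches before the later of its 2 starts, at -68 to -61 and -34 to -27 from it, and GENCODE places both in an intron of CDC7. POLE, GINS2 and LIG1 have 1 match each, at -18 to -11, -31 to -24 and -114 to -107, within noncoding exon or untranslated sequence of the same gene. MCM6, with 2 sites outside genes where matches on both strands overlap by 4 bases and span 12, and ORC3, a gene that was higher after MPM-1, were added after their values were seen.
CDC7 site 1, chr1:91501033-91501062, plus strand: gtgcagttcctTTTCCCGCcccccttcgga
CDC7 site 2, chr1:91501067-91501096, plus strand: tccgacctgcgGCGGGAAAgtcgcgcgcct
POLE, chr12:132687342-132687371, minus strand: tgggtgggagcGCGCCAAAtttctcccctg
GINS2, chr16:85688967-85688996, minus strand: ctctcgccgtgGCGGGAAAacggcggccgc
LIG1, chr19:48170440-48170469, minus strand: acttcacccctTTTCCCGCcctcctcccat
MCM6 site 1, chr2:135876575-135876604, minus strand: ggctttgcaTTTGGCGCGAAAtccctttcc
MCM6 site 2, chr2:135876513-135876542, minus strand: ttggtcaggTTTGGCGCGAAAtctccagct
ORC3, chr6:87590112-87590141, plus strand: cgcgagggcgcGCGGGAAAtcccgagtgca

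Genes with and without an upstream E2F match were set side by side as a description. The median log2 fold change was -0.91 in the 16 with a match and -0.67 in the 31 without, 13 of 16 and 23 of 31 were lower at an adjusted p under 0.05, and 4 of 16 and 11 of 31 were lower by at least 1 with an adjusted p under 0.01. The CCAAT box, bound by NF-Y and spelled CCAAT, was in 28 of the 47 genes (59.6%), beside 41.6% of the tested genes. Its split was similar, with a median of -0.88 in the 28 with it and -0.61 in the 19 without. By the same thresholds 23 of 28 and 13 of 19 were lower, and 10 of 28 and 5 of 19 were lower by at least 1. Over all genes tested, 28.8% were lower and 8.75% lower by at least 1. Neither split was tested, so the deeper median is not particular to E2F matches. The CHR element, spelled TTTGAA or TTCGAA and known from late cell cycle genes, was in 2 (4.26%), MCM6 and POLE3, beside 13.1% of the tested genes. No match of one of these motifs overlapped a match of another in the windows of the replication genes. A match is a spelling in the window and not evidence of binding, and its absence says nothing about the factor.

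Within origin recognition and licensing, the subunits of the origin recognition complex went different ways. ORC6 (ENSG00000091651, GRCh38 chromosome 16, 46689643 to 46698394), the smallest subunit, stood at 17.9, 22.1 and 22.0 CPM in the DMSO libraries and at 6.40, 7.32 and 7.0 CPM in the MPM-1 libraries, a change of -1.58 on the log2 scale (standard error 0.14, adjusted p = 2.03e-05). ORC1, the large ATPase subunit, stood at 15.9, 16.0 and 16.0 CPM and fell to 5.55, 6.44 and 7.71 CPM (-1.28, adjusted p = 0.000128). Both were lower in every MPM-1 library by a wide gap, and the DMSO libraries of ORC1 were nearly equal. ORC2, a core subunit, fell less, from 32.5 ± 3.31 to 20.4 ± 2.92 CPM (SD, n = 3 each; -0.67).

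No other core subunit passed as lower. ORC3 (ENSG00000135336, chromosome 6, 87590067 to 87667453) stood at 22.3, 28.3 and 29.3 CPM under DMSO and at 31.4, 36.6 and 32.9 CPM after MPM-1 (log2 fold change 0.34, standard error 0.12, adjusted p = 0.0378). ORC5 (ENSG00000164815, chromosome 7, 104126341 to 104208047) stood at 17.5, 21.4 and 21.1 CPM and then at 21.8, 26.3 and 28.4 CPM (0.35, standard error 0.13, adjusted p = 0.0422). In both genes every MPM-1 library was above every DMSO library, with DMSO replicate 1 the lowest. Both calls depend on the setting, since ORC3 lost its call in 9 of 17 other settings and ORC5 in 10, among them the one without DMSO replicate 1 (0.22, adjusted p = 0.0965, and 0.27, adjusted p = 0.123) and scaling by library size alone (0.18 and 0.20). ORC4, which overlaps ACVR2A and MBD5 on the other strand, had overlapping libraries at 51.1 ± 2.86 and 54.2 ± 5.96 CPM (0.08, adjusted p = 0.475).

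The loading factors differed from each other as well. CDC6, the ATPase that loads the helicase with the origin recognition complex, stood at 38.9, 36.0 and 37.3 CPM under DMSO and at 37.8, 35.5 and 35.1 CPM after MPM-1. Its libraries overlapped, at -0.05 on the log2 scale (standard error 0.08, adjusted p = 0.64). CDT1, which brings the MCM ring to the origin, fell from 53.7 ± 3.57 to 28.4 ± 2.03 CPM (-0.92, adjusted p = 3.36e-05). GMNN, or geminin, which binds CDT1 and blocks licensing again, fell from 40.8 ± 2.86 to 21.7 ± 2.98 CPM (-0.92, adjusted p = 0.000138). The loading factor and its inhibitor were thus lower by nearly the same fold, and their ratio is given with the other partner ratios.

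All 7 MCM genes were lower at an adjusted p under 0.05. MCM2 (ENSG00000073111, chromosome 3, 127598223 to 127622436), a subunit of the hexameric helicase, had the largest fall of them, from 42.2, 55.9 and 54.1 CPM in the DMSO libraries to 18.6, 17.5 and 17.9 CPM in the MPM-1 libraries (log2 fold change -1.50, standard error 0.12, adjusted p = 8.71e-06). MCM4 stood at 62.0, 91.4 and 86.2 CPM and then at 40.9, 34.6 and 37.7 CPM (-1.08, standard error 0.14). The other 4 subunits of the ring lay within a narrow band just short of 1, with MCM3 and MCM6 at -0.97, MCM5 at -0.94 and MCM7 at -0.91. MCM8, which is no part of that ring and acts with MCM9 in repair, had the smallest change, from 21.1, 22.6 and 24.7 CPM to 13.4, 14.2 and 10.3 CPM (-0.85). All 7 were lowest in DMSO replicate 1 among the DMSO libraries, a library that was the lowest of its group in 41 of the 56 replication genes. The share of all genes lowest in it was not taken. Relative to the DMSO mean on the log2 scale, its median was -0.15 over the replication genes and 0.003 over all genes. Without DMSO replicate 1, 48 genes were lower and 22 were lower by at least 1 with an adjusted p under 0.01. MCM2 overlaps TPRA1 and MCM7 overlaps AP4M1 on the other strand, and the sources do not say whether counting used strand.

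The kinase and the factors that turn the MCM ring into an active helicase had the deepest falls. CDC7, the catalytic kinase subunit, stood at 16.0, 24.0 and 29.1 CPM under DMSO and at 5.22, 6.60 and 6.85 CPM after MPM-1, which left 27% of the DMSO level (log2 fold change -1.89, standard error 0.22). DBF4, which activates that kinase, kept more of its RNA, with 56.8 ± 1.46 CPM before and 38.7 ± 3.04 CPM after (-0.56, standard error 0.08, adjusted p = 0.000412). The counts and the deposited FPKM (the authors' values corrected for both transcript length and depth) differed more for DBF4 than for any other replication gene. Its log2 ratio of mean FPKM was -0.99, so the FPKM lay 0.44 below the counts on the log2 scale, where the median over the 56 genes was -0.15 and the next lowest -0.23. DBF4 overlaps SLC25A40 on the other strand.

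The GINS complex joins CDC45 and the MCM ring, and 3 of its 4 subunits fell by more than 1 on the log2 scale. GINS4 stood at 12.5, 13.7 and 14.7 CPM and then at 4.37, 3.48 and 3.45 CPM (-1.86). GINS1 went from 38.3, 49.0 and 39.0 CPM to 13.1, 14.3 and 12 CPM (-1.68). GINS2 went from 11.7, 17.1 and 18.5 CPM to 6.14, 7.32 and 7.53 CPM (-1.17, standard error 0.19). In these subunits the groups did not overlap. GINS3 is the exception, with 6.17 ± 1.71 CPM under DMSO and 4.15 ± 0.454 CPM after MPM-1 and overlapping libraries (-0.58, adjusted p = 0.0684). It passed as lower in 6 of 17 other settings, among them the one without DMSO replicate 1 (-0.78, adjusted p = 0.0109).

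CDC45 (ENSG00000093009, chromosome 22, 19479459 to 19520612), the helicase cofactor, stood at 22.3, 29.99 and 35.8 CPM in the DMSO libraries and fell to 10.1, 12.3 and 10.1 CPM (log2 fold change -1.44, standard error 0.18, adjusted p = 0.000118). TICRR (ENSG00000140534, chromosome 15, 89575482 to 89631056), also called Treslin, which helps to bring CDC45 to the origin, was steady under DMSO at 10.9, 11.1 and 11.2 CPM and fell to 3.05, 3.45 and 3.90 CPM (-1.67, standard error 0.17). MCM10, which acts as the helicase starts to unwind, went from 8.73, 11.48 and 11.8 CPM to 5.19, 4.42 and 3.72 CPM (-1.27). RECQL4, a RecQ helicase with a role in origin firing, went from 47.5, 44.7 and 49.0 CPM to 19.0, 26.2 and 24.2 CPM (-1.03). All of these had MPM-1 libraries below every DMSO library. TOPBP1, the scaffold that TICRR binds and that also activates the checkpoint kinase ATR, was nearly level, at 50.7, 52.3 and 51.6 CPM and then 53.8, 51.8 and 46.2 CPM. The fitted difference came to -0.03 on the log2 scale (standard error 0.08, adjusted p = 0.80), and it was 0.051 without MPM-1 replicate 3.

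**Figure D2:**
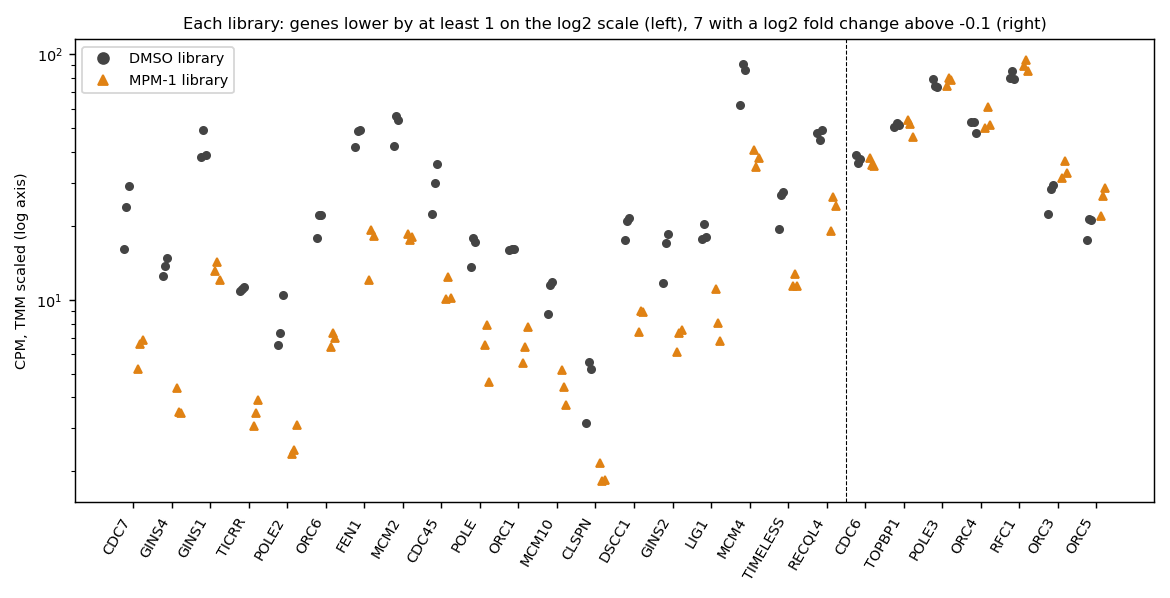
CPM (y axis, log scale, TMM scaled) in each of the 3 DMSO and 3 MPM-1 libraries for the 19 replication genes lower by at least 1 on the log2 scale at an adjusted p under 0.01 (left of the dashed line) and the 7 with a log2 fold change above -0.1 (right). The groups are apart in all 19 on the left, and among the 7 on the right they are apart in ORC3, ORC5 and RFC1, with MPM-1 higher.

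Among the polymerases, the catalytic and second subunits of polymerase epsilon, the main leading strand enzyme, fell most. POLE2 (ENSG00000100479, chromosome 14, 49643555 to 49688422) stood at 6.55, 7.29 and 10.5 CPM under DMSO and at 2.36, 2.44 and 3.10 CPM after MPM-1 (log2 fold change -1.62, standard error 0.24, adjusted p = 0.000359). POLE, the catalytic subunit, went from 13.6, 17.8 and 17.2 CPM to 6.56, 7.90 and 4.62 CPM (-1.35, standard error 0.21). The small histone-fold subunits of the same enzyme behaved otherwise. POLE3, which is also part of the CHRAC chromatin remodelling complex, stood at 79.4, 74.5 and 73.2 CPM and then at 74.4, 79.8 and 78.4 CPM, with overlapping libraries (0.04, adjusted p = 0.707, and -0.11 with scaling by library size alone). POLE4 fell from 18.6 ± 1.63 to 11.9 ± 1.83 CPM (-0.64, adjusted p = 0.00442).

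Polymerase delta, which extends the lagging strand, was lower in the 3 subunits among the 56 genes, by a similar fold, while its small subunit POLD4, counted with the related enzymes, was higher (log2 fold change 0.27, adjusted p = 0.0329). POLD1, the catalytic subunit, went from 52.5 ± 1.29 to 34.5 ± 0.710 CPM (log2 fold change -0.61), POLD2 from 136 ± 1.54 to 87.9 ± 6.30 CPM (-0.63) and POLD3 from 23.6 ± 3.63 to 14.7 ± 0.753 CPM (-0.68). The genes of polymerase alpha and primase were low and less certain. PRIM1, the catalytic primase subunit, fell from 13.3 ± 1.83 to 7.46 ± 1.35 CPM (-0.83, adjusted p = 0.00377), but it overlaps NACA on the same strand, and counting could have divided reads between them. POLA2 passed with overlapping libraries (-0.81, standard error 0.29, adjusted p = 0.0374), it overlaps AP000944.2 on the same strand, and its call was lost without DMSO replicate 1 (-0.80, adjusted p = 0.079), DMSO replicate 2 (-0.70), MPM-1 replicate 1 (-0.73) or MPM-1 replicate 3 (-0.56). PRIM2 (-0.40, adjusted p = 0.0612) and POLA1, the catalytic subunit (-0.36, adjusted p = 0.186), did not pass. Without DMSO replicate 1 both did, at -0.48 and -0.53. Of 17 other settings, PRIM2 passed as lower in 6 and POLA1 in 1.

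PCNA, the sliding clamp that tethers the polymerases, had the highest level per transcript length of the 56 genes under DMSO, at 110 ± 8.73 FPKM, and it fell from 145 ± 9.24 to 83.6 ± 10.2 CPM (log2 fold change -0.79, adjusted p = 0.000146). Replication factor C loads that clamp, and its subunits spread from a fall to no change. RFC3 fell by 0.82 on the log2 scale, RFC4 by 0.48 and RFC5 by 0.42. RFC2 was just past the threshold, at 53.6 ± 5.85 and 44.5 ± 3.51 CPM (-0.27, adjusted p = 0.0457), and lost its call in 7 of 17 other settings. It did so with DESeq2 size factors in edgeR (adjusted p = 0.057), DESeq2's Wald test (adjusted p = 0.0548) and the replicate block. It also did so without DMSO replicate 2, DMSO replicate 3, MPM-1 replicate 1 or MPM-1 replicate 3, with log2 fold changes from -0.28 to -0.18. RFC1, the large subunit, stood at 79.8, 85.3 and 79.4 CPM and then at 89.2, 94.2 and 85.5 CPM. Every MPM-1 library of RFC1 was above every DMSO library, but the nearest of them, at 85.5 and 85.3 CPM, nearly touched. The fitted log2 fold change of 0.14 did not pass (standard error 0.07, adjusted p = 0.145). It was -0.013 with scaling by library size alone.

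The alternative clamp loader, which serves cohesion between sister chromatids, shares the small RFC subunits and has CHTF18 and DSCC1 of its own. DSCC1 had the largest fall among the clamp and loader genes, from 17.4, 20.9 and 21.6 CPM to 7.42, 8.97 and 8.90 CPM (log2 fold change -1.24, standard error 0.15, adjusted p = 9.19e-05). CHTF18, which overlaps RPUSD1 on the other strand, went from 24.4 ± 1.94 to 14.5 ± 2.20 CPM (-0.75). Both were below DMSO in every MPM-1 library.

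The 3 genes of RPA, the heterotrimer that covers single-stranded DNA, were all lower and by unequal folds. RPA3 (ENSG00000106399, chromosome 7, 7636518 to 7718607), the smallest subunit, stood at 46.8, 45.2 and 49.4 CPM under DMSO and at 23.1, 25.3 and 22.6 CPM after MPM-1 (log2 fold change -0.99, standard error 0.09, adjusted p = 1.73e-05). RPA2, the middle subunit, stood at 46.6, 42.4 and 47.7 CPM and then at 35.7, 34.9 and 34.9 CPM (-0.37, adjusted p = 0.00358). RPA1, the large subunit, lay between them, from 105 ± 1.70 to 70.6 ± 2.16 CPM (-0.58). RPA1 overlaps SMYD4 and RPA3 overlaps UMAD1 on the other strand.

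FEN1 (ENSG00000168496, chromosome 11, 61792637 to 61797244), the flap nuclease that trims lagging strand fragments, stood at 42.0, 48.8 and 49.1 CPM and fell to 12, 19.3 and 18.3 CPM (log2 fold change -1.50, standard error 0.16, adjusted p = 5.91e-05). FEN1 lies with FADS2 on the same strand and with TMEM258 on the other, so its value is uncertain. LIG1, the ligase that seals the fragments, went from 17.7, 20.4 and 18.1 CPM to 11.1, 8.03 and 6.82 CPM (-1.12, standard error 0.18). DNA2, a nuclease and helicase that cuts long flaps, changed least of the 3, from 17.4, 19.3 and 21.7 CPM to 13.8, 11.4 and 13.3 CPM (-0.60, adjusted p = 0.00434). The MPM-1 libraries were below the DMSO libraries in each.

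Of the fork protection genes, CLSPN, or claspin, which links the fork to the checkpoint kinase CHK1, had the lowest level per transcript length of all 56 genes, at 1.04 ± 0.305 FPKM under DMSO. It stood at 3.15, 5.6 and 5.25 CPM under DMSO and at 2.17, 1.82 and 1.85 CPM after MPM-1, from 104, 242 and 209 counts to 66, 56 and 62 (log2 fold change -1.27, standard error 0.27, adjusted p = 0.0033). TIMELESS, the core of the fork protection complex, went from 19.3, 26.8 and 27.4 CPM to 11.3, 12.7 and 11.3 CPM (-1.05, standard error 0.15). Its partner TIPIN stood at 9.67, 13.2 and 11.1 CPM and then at 9.55, 8.10 and 8.43 CPM, and did not pass although the libraries do not overlap (-0.38, adjusted p = 0.0737). TIPIN passed as lower in 6 of 17 other settings, among them the one without DMSO replicate 1 (-0.48, adjusted p = 0.039). WDHD1, which ties polymerase alpha to the helicase, fell from 25.7 ± 2.88 to 14.2 ± 0.760 CPM (-0.86).

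Levels per transcript length were lower in the genes with the deep falls. The 19 genes lower by at least 1 with an adjusted p under 0.01 had a median of 6.16 FPKM under DMSO and a maximum of 20.9, and the other 37 had a median of 14.5 and a maximum of 110. This is a description, since FPKM and the fold change come from the same libraries.

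Partner genes of the same complex were next compared as log2 ratios of their FPKM in each library, for 13 pairs. An exact permutation test (two-sided) of 3 libraries against 3 cannot go below p = 0.10, and 9 pairs reached that value, so none can pass an adjusted p under 0.05. No share over other pairs of genes was taken, so the count of 9 has no background. Single genes had libraries apart, lower in 33.3% and higher in 31% of all genes. The ratios largely restate the changes of the single genes given above. The ratio of POLE to POLE3 changed most, from -4.43, -3.96 and -3.98 in the DMSO libraries to -5.40, -5.23 and -5.98 after MPM-1, a difference of -1.41. GINS1 to GINS3 changed by -1.14, CDC7 to DBF4 by -1.04, POLE2 to POLE4 by -0.99, RFC3 to RFC1 by -0.98 and TIMELESS to TIPIN by -0.84, and in each the libraries of the treatments were apart. ORC1 to ORC2 changed by -0.62 and MCM2 to MCM7 by -0.59, also apart, so partners that both fell did so by unequal folds. RPA1 to RPA3 went the other way, by 0.41.

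The ratio of the loading factor to its inhibitor hardly moved. CDT1 to GMNN was -0.81, -1.11 and -1.24 under DMSO and -0.81, -1.40 and -0.91 after MPM-1, a difference of 0.01 with overlapping libraries (exact permutation p = 1). POLD1 to POLD2 differed by 0.08, CHTF18 to DSCC1 by 0.41 and POLA1 to PRIM1 by 0.49, with overlapping libraries in each (exact permutation p = 0.30). With CPM in place of FPKM, which corrects nothing for length, the differences were -1.30 for CDC7 to DBF4 and -0.66 for TIMELESS to TIPIN, and the direction was the same in all 13 pairs.

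**Figure D3:**
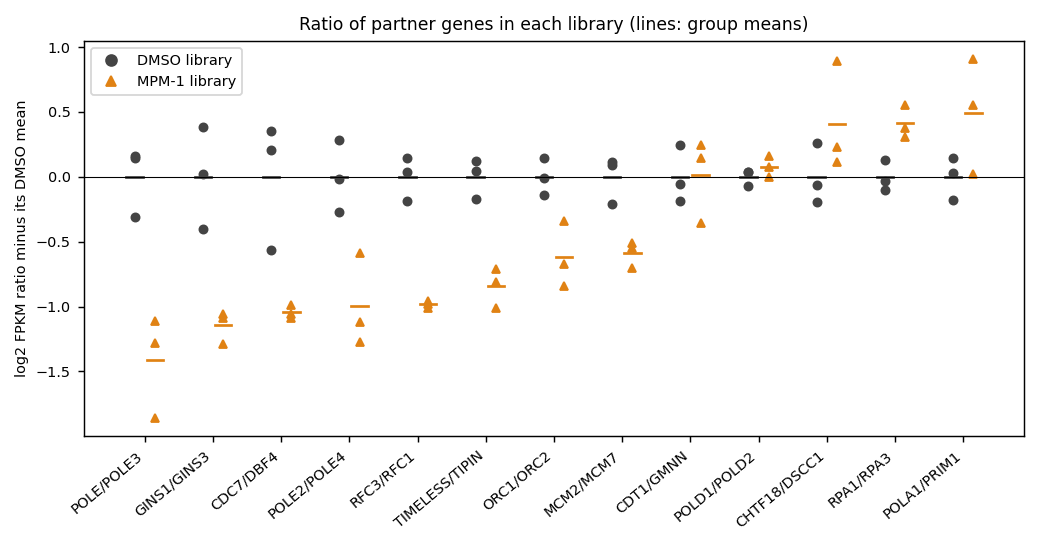
Log2 FPKM ratio of 13 partner pairs (x axis) in each library, drawn relative to the mean of its DMSO libraries (y axis, log2); short lines are the means of 3 libraries. The MPM-1 libraries lie below all DMSO libraries in the first 8 pairs, down to a mean of -1.41 for POLE to POLE3, and above them in RPA1 to RPA3.

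Other genes that control or serve replication were counted from 8 lists that are not part of the 56 genes, at an adjusted p under 0.05, where 28.8% of all genes were lower and 27.7% higher. Nucleotide supply had the highest share lower, with 13 of 16 lower and 1 higher and a median log2 fold change of -0.74. Its deepest falls were DTYMK, thymidylate kinase (-1.38), RRM2, a subunit of ribonucleotide reductase (-1.16), and CAD, the start of pyrimidine synthesis (-1.07), and CMPK1, a nucleoside monophosphate kinase, was higher (0.31). Chromatin assembly and maintenance methylation had 8 of 13 lower and 0 higher, led by UHRF1, which guides DNMT1 to replicated DNA (-2.09), ASF1B, a histone chaperone (-1.86), and HELLS, a chromatin remodeller (-1.24). The count of 0 higher came from edgeR, was also 0 with DESeq2's Wald test and with limma on FPKM, and held 0 genes at an unadjusted p under 0.05.

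Of 14 genes that control licensing outside the 56, 9 were lower and 3 higher. The falls were led by SKP2, the ubiquitin ligase subunit that targets CDT1 and p27 (log2 fold change -1.72), MTBP, a partner of TICRR (-1.19), and TONSL, which reads new histones behind the fork (-0.88). Higher were KAT7, the acetyltransferase HBO1 (0.46), and the ligase scaffolds CUL4B (0.45) and CUL4A (0.27). Of 18 further replication enzymes, 9 were lower and 2 higher, led by the helicase PIF1 (-2.75), the topoisomerase TOP2A (-1.30) and CHTF8, the third subunit of the alternative loader (-1.11), with RNASEH1 (0.28) and POLD4, the small subunit of polymerase delta (0.27), higher. CHTF8 and POLD4 are partners of genes among the 56, and the former moved with DSCC1 and CHTF18 while the latter moved against POLD1, POLD2 and POLD3. The calls of RNASEH1 and POLD4 are not stable, since in this list 0 genes were higher with scaling by library size alone.

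The E2F and pocket protein list, the regulators of G1/S transcription, had 9 of 18 lower and 3 higher. MYBL2, or B-Myb (log2 fold change -1.78), E2F2 (-1.69) and E2F8 (-1.61) fell most, and E2F1, a main activator of replication genes, fell from 16.2 ± 1.74 to 8.94 ± 1.27 CPM (-0.86, adjusted p = 0.00127). RB1, the repressor of E2F, rose (0.70), as did E2F5 (0.58) and LIN52 (0.44). Of 15 G1/S cyclins, kinases and inhibitors, 7 were lower and 4 higher, the latter close to the share of all genes. The inhibitors went both ways. CDKN1A, or p21, rose from 516 ± 90.7 to 1065 ± 44.1 CPM (1.05, adjusted p = 5.62e-05). CDKN1C (1.20) and CDKN2B (1.96) rose as well, the latter at low levels of 0.92 and 3.59 CPM. CDKN2C fell (-2.88), and CDKN1B, or p27, fell from 81.4 ± 7.02 to 44.8 ± 14.3 CPM (-0.86, adjusted p = 0.0038). CDKN2D did not pass (-0.19, adjusted p = 0.28). The cyclins of the CDK2 kinase went opposite ways, since CCNE1 rose from 13.7 ± 1.46 to 22.8 ± 2.18 CPM (0.74) and CCNE2 fell from 2.00 ± 0.299 to 0.753 ± 0.223 CPM (-1.41), and CDC25A (-1.71) and CCNA2 (-1.59) fell.

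In the replication checkpoint list, 7 of 13 were lower and 3 higher. CDC25C (log2 fold change -2.36), ETAA1, which activates ATR at RPA (-1.37), and ATRIP, the partner of ATR (-0.47), were lower, and the 9-1-1 clamp subunits RAD9A (0.79) and HUS1 (0.52) and the kinase ATM (0.42) were higher. Of 14 cohesion genes, 7 were lower and 2 higher, with ESCO2, the acetyltransferase that works at the fork (-1.38), CDCA5, or sororin (-1.09), and PDS5B (-0.88) the deepest falls and STAG2 (0.28) and PDS5A (0.27) higher. On the deposited FPKM (limma, log2 with a pseudocount of 0.1), the genes higher numbered 1 in the E2F list, 1 in licensing control and 0 in nucleotide supply, in further enzymes and in cohesion. In the main edgeR fit, none of the 8 lists had a share of genes higher above that of all genes. This did not hold in every setting. With DESeq2 size factors in edgeR, 5 of the 15 G1/S genes were higher, beside 28.8% of all genes. With scaling by library size alone, 4 of the 15 were higher, beside 19.9%.

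**Figure D4:**
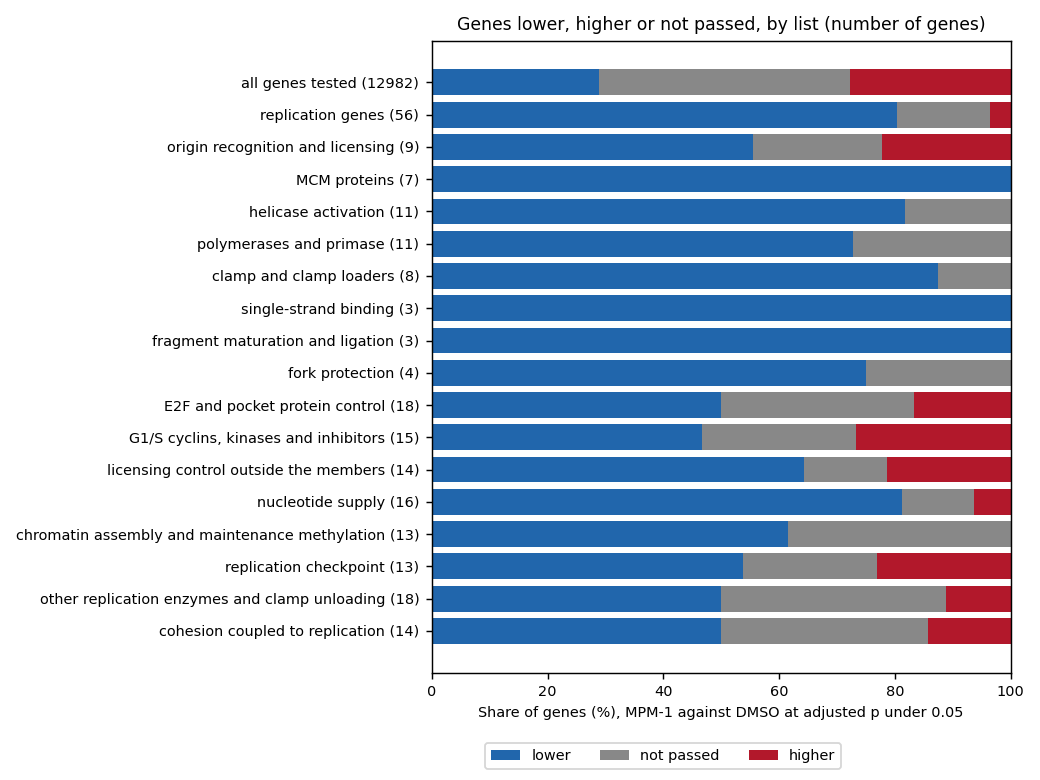
Share of genes (x axis, %) lower, not passed and higher after MPM-1 at an adjusted p under 0.05, for all genes tested, the 56 replication genes, their 8 roles and 8 lists of related genes, with the number of genes tested in brackets. The replication genes are lower in 45 of 56 and the nucleotide supply genes in 13 of 16, beside 28.8% of all genes.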

How the data were processed

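RNA was measured in 6 SW480 libraries, 3 with DMSO and 3 with MPM-1, grouped by their labels. The authors deposited 1 table with a whole-number count per gene and library, not normalized, and an FPKM beside it. It also holds log2 fold changes and FDR values (adjusted p-values) of the authors' own comparison, which were deposited but not used. Processing notes of the submitters name HISAT2, DESeq2 and the build mm10, although all 12127 Ensembl identifiers in the table are human genes of GENCODE release 29, from which positions were taken. The remaining 855 of the 12982 entries carry other identifiers. They were tested too and count in the shares over all genes. The counter and the filter are not given in the sources used here. Every gene had at least 115 counts in total. Libraries of 1 treatment all differed by more than sampling noise, with a mean chi-square of 15.4 to 33.3 for a gene.

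Counts were tested in R 4.3.3 with edgeR 4.0.16 (TMM scaling, filterByExpr, which removed no gene, quasi-likelihood test without covariates, Benjamini-Hochberg over 12982 genes), and the script was tested on simulated data. CPM values are counts scaled to a common library size by TMM. FPKM was used for levels between genes and for partner ratios, tested by exact permutation in R 4.3.3. Alternatives were DESeq2 1.42.0, its size factors, scaling by library size alone, a mean of at least 50 counts, the replicate block, each library left out in turn, limma 3.58.1 on log2(FPKM + 0.1), with 1 and 0.01 as other pseudocounts, and, chosen after seeing the data, TMM without genes of mitochondrial DNA. Fold changes on the log2(FPKM + pseudocount) scale understate the change of low genes. Motifs were searched in RefSeq promoter windows.

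The genes and lists were chosen with earlier results of these data known. Values per library are given for genes past an adjusted p under 0.01 that moved by 1 or more on the log2 scale, for the largest and smallest change in each role and for genes that were higher. In each related list the 3 largest falls and 3 largest rises that passed are named, with CDKN1A, E2F1, CCNE1 and CCNE2. CDKN1B and CDKN2D were added after their values were seen. Promoter sites were to be printed for up to 6 genes with a match, and 4 qualified.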

Additional observations from a re-analysis of the deposited data

How the results depend on the processing

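Over 17 other settings, 44 of the 56 replication genes kept their direction and their side of the threshold. The other 12 were ORC3, ORC4, ORC5, GINS3, TOPBP1, POLA1, POLA2, PRIM2, POLE3, RFC1, RFC2 and TIPIN, and the causes were not tested. Among the 17 settings, edgeR without the filter repeats the main fit, since the filter removed no gene, and CLSPN was tested in 14. The lower count ranged from 43 to 48 and the count lower with the fold from 16 to 22 with 1 library left out, and the median from -0.91 to -0.77. The higher count ranged from 0 to 2 there. It was 0 with library size alone, with limma in each form and at an adjusted p under 0.01 without a fold threshold. Scaling by library size alone moved the median of all genes from -0.026 to -0.18, and 37.5% of all genes were then lower and 19.9% higher, in place of 28.8% and 27.7%. It gave 28 genes lower with the fold and medians of -0.99 for the 56 genes, -1.12 for the MCM proteins, -1.42 for helicase activation, -0.79 for polymerases, -0.76 for the clamp and -0.73 for single-strand binding, and turned ORC4 to -0.064, POLE3 to -0.11 and RFC1 to -0.013. With limma on log2(FPKM + 0.1), 35.2% of all genes were lower and 20.4% higher and their median was -0.15. The median of the 55 replication genes tested (CLSPN was below the filter) was -0.97, and it was -0.80 for polymerases, -0.79 for the clamp and -0.73 for single-strand binding. ORC4 was -0.094 and POLE3 -0.11. Without the filter the 56 genes were at -0.97, polymerases at -0.80, the clamp at -0.79, single-strand binding at -0.73, ORC4 at -0.094 and POLE3 at -0.11. A pseudocount of 0.01 gave -0.99 for all, -0.84 for licensing, -0.81, -0.79 and -0.73 for the other 3 roles, ORC4 -0.095 and POLE3 -0.11. A pseudocount of 1 gave -0.94 for helicase activation, -0.73 for the clamp, -0.70 for single-strand binding, -0.76 for fork protection, ORC4 -0.084 and POLE3 -0.11. TOPBP1 ranged from -0.058 to 0.051 with 1 library left out, the latter without MPM-1 replicate 3.

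Replicate numbers did not pair the libraries, with correlations of 0.021, 0.11 and -0.074 between same-numbered deviations. With the number as a replicate block, 44 genes were lower, 2 higher and 19 lower with the fold, and RFC2 lost its call (-0.27, adjusted p = 0.0676). Counts of genes in the related lists moved by over 1.5 times in 34 of 272 checks. The filter for low counts removed no gene. Genes below 115 counts in total were not analysed here, and at this depth the lowest replication gene, CLSPN, had 56 counts in its lowest library.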
